A study of Homo sapiens with 6 samples.

Results

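The 10 genes described here, DUSP4, DUSP5, DUSP6, SPRY1, SPRY2, SPRY4, SPRED1, SPRED2, ETV4 and ETV5, are regulators of the ERK pathway that are themselves switched on by it. They were taken by gene name from the 58884 genes of the RNA-seq table, a choice made with earlier results of these data known. The table covers 6 libraries of T0519, a line of immortalized human ventricular cardiomyocytes, 3 from cells given a negative control siRNA (NC) and 3 from cells given siRNA against CIRBP (SiCIRBP), a cold-inducible RNA-binding protein. The study kept 4 of these libraries, NC_2, NC_3, SiCIRBP_1 and SiCIRBP_3, and left out NC_1 and SiCIRBP_2 after it had looked at their expression profiles. Results are therefore given over the 4 libraries and over all 6. The labels state neither separate cultures, the siRNA sequence, its dose nor the time after transfection, so p-values measure only the spread between these libraries, which may be technical.

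The ERK pathway carries growth factor signals from receptor tyrosine kinases through RAS, RAF and MEK to the kinase ERK. Active ERK induces genes that turn the signal down again. The DUSP phosphatases remove phosphate from ERK, Sprouty (SPRY) and SPRED proteins act higher up at RAS and RAF, and ETV4 and ETV5 are ETS transcription factors of the PEA3 group, made in response to the signal. In the heart the pathway is known for its part in cardiomyocyte growth and survival, and the transcripts of these genes are widely read as a record of recent ERK output. ERK activity itself was not measured in these RNA libraries. The study reports that ERK signalling seemed to play no part when doxorubicin caused apoptosis in cardiomyocytes with CIRBP knocked down.

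Over the 4 libraries, SPRY2, DUSP6, SPRED1 and DUSP5 were lower in SiCIRBP than in NC, and none of the 10 genes was higher. Of all tested genes, 9.76% were lower and 9.62% were higher. SPRY2 fell the furthest, by more than 2-fold. When all 6 libraries were fitted, none of the 10 genes passed the test, and neither did any other of the 15217 tested genes. DUSP6 was the only one of the 10 whose 3 SiCIRBP values all lay below its 3 NC values. This held for 16.6% of all tested genes. In SiCIRBP_2, a library left out by the study, DUSP5, SPRY4, ETV4 and ETV5 reached their highest level of all 6 libraries, as did 31% of all tested genes.

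Library totals ran from 25726259 to 29919566 estimated counts. CIRBP itself, the siRNA target, was measured at 86.3, 85.8 and 90.9 CPM (counts scaled to a common library size with TMM factors) in NC_1, NC_2 and NC_3, and at 54.8, 24.3 and 46.3 CPM in SiCIRBP_1, SiCIRBP_2 and SiCIRBP_3. All 3 SiCIRBP libraries were thus below all 3 NC libraries, and SiCIRBP_2 was the lowest. SiCIRBP_2 stood apart from the rest. Its correlation with the other libraries (Pearson r of log2(CPM + 1) across genes, which are not independent replicates) was between 0.960 and 0.975, against 0.981 to 0.997 among the others. The 20 interferon-stimulated genes on a fixed list summed to 8781 TPM (a per-transcript level corrected for length and library size) in SiCIRBP_2, to 1732 in SiCIRBP_3, to 400 in SiCIRBP_1 and to between 859 and 900 in the NC libraries. The part of this in the results below was not tested. Of 12 cardiomyocyte markers, MYH6, MYL2, RYR2 and PLN were listed at 0 TPM in all 6 libraries and 8 were below 1 TPM in every library, while GATA4 was measured at 22.6 to 63.0 TPM. NKX2-5 was at 3.39 to 9.69 TPM, the sarcomere gene ACTN2 at 7.86 to 15.9 TPM and TNNI3 at 0.11 to 2.45 TPM. GATA4, NKX2-5 and ACTN2 were thus expressed, TNNI3 was low, and the other listed markers were absent or nearly so.

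**Figure D1:**
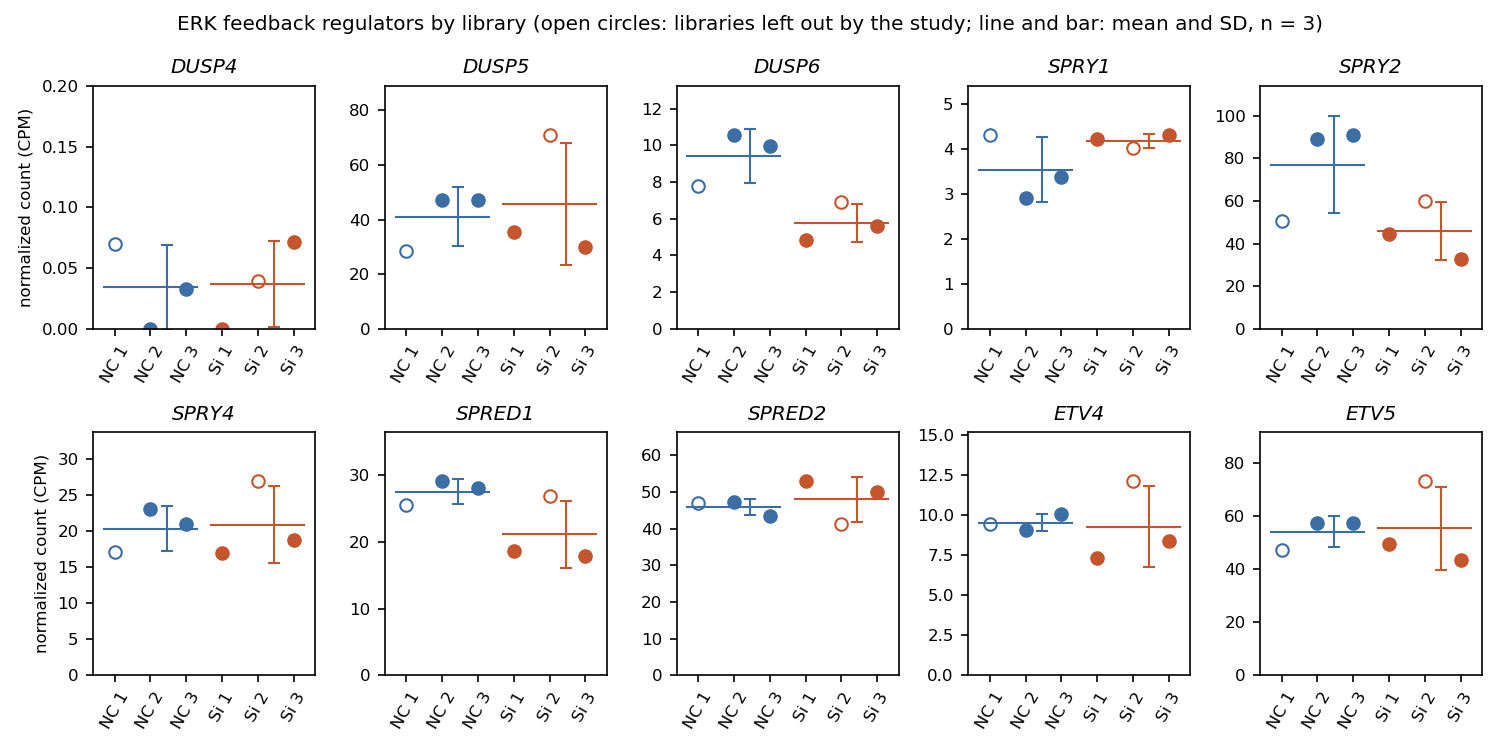
Normalized count (CPM, each axis starting at 0) of the 10 ERK feedback regulators in the 3 NC (blue) and 3 SiCIRBP (orange, Si) libraries, with the mean as a horizontal line and the SD as a bar (n = 3) and open circles for the libraries left out by the study. The groups are separate for DUSP6 alone, and the open SiCIRBP circle is the highest point for DUSP5, SPRY4, ETV4 and ETV5.

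The genes differed widely in abundance before any comparison of groups. On the TPM scale, which corrects for transcript length, SPRY2 was the most abundant in NC with 48.9 ± 14.99 TPM (SD, n = 3), followed by DUSP5 with 24.4 ± 6.76 TPM, ETV5 with 22.2 ± 3.08 TPM and SPRED2 with 17.5 ± 1.16 TPM. DUSP5 and ETV5 did not differ beyond their spread, and NC_1 held the lowest SPRY2 and DUSP5 values of the NC libraries. Lower levels were found for ETV4 with 8.07 ± 0.492 TPM, SPRY4 with 7.10 ± 1.45 TPM, SPRED1 with 5.54 ± 0.526 TPM and DUSP6 with 4.41 ± 0.520 TPM, and SPRY1 was at 3.50 ± 0.697 TPM. Neighbours in this order overlapped between ETV4 and SPRY4, between SPRY4 and SPRED1 and between DUSP6 and SPRY1, so their order is not set beyond the spread of the NC libraries. DUSP4, a nuclear ERK phosphatase, was at 0.02 TPM or less in every library, with between 0 and 2 estimated counts. It failed the filter on low counts, so that 9 of the 10 genes were tested, and no change of DUSP4 was detectable at this depth. The lowest count of the other 9 genes was 75, for SPRY1 in a single library, which corresponds to a counting error of 11.5%.

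Among the phosphatases, DUSP6 acts in the cytoplasm and DUSP5 in the nucleus, and each is selective for ERK. Both carry the catalytic signature of this enzyme family, and its coding bases are shown from the reference annotation. No read sequences were examined. The capitals mark the codons for the invariant histidine and cysteine at the start and for the arginine at the end (GENCODE 29, GRCh38):
DUSP5, chr10:110510055-110510078, plus strand, exon 4 of 4, coding bases 784 to 807: CACTGTgaggctgggatctccCGT
DUSP6, chr12:89349503-89349526, minus strand, exon 3 of 3, coding bases 874 to 897: CATTGCttggctggcattagcCGC
The runs are identical at 15 of 24 bases. DUSP5 shares 0.65% of its 31-base words with other genes, mainly with the pseudogenes DUSP5P1 and DUSP5P2.

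DUSP6 was measured at 7.77 CPM in NC_1, 10.6 CPM in NC_2 and 9.94 CPM in NC_3. In the SiCIRBP libraries it was at 4.83, 6.89 and 5.58 CPM (replicates 1, 2 and 3). Every SiCIRBP library was below every NC library, and the lowest NC value came from NC_1. Over the 4 libraries DUSP6 fell by 0.98 on the log2 scale (SE 0.168, 95% confidence interval -1.38 to -0.58, edgeR quasi-likelihood test, Benjamini-Hochberg adjusted p = 0.0147). Over the 6 libraries the log2 fold change was -0.71 (SE 0.212, edgeR adjusted p = 0.122), and DESeq2 on the same counts gave an adjusted p of 0.0399. The exact permutation test of 3 against 3 libraries gave p = 0.1 (two-sided), the smallest p this design allows. The call over the 4 libraries was lost without NC_2 (log2 fold change -0.93, edgeR adjusted p = 0.125) and without NC_3 (-1.03, adjusted p = 0.136).

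The DUSP6 gene lies at chr12:89347232-89353271 on the minus strand, and an antisense gene overlaps it on the plus strand. This gene is AC024909.1 in the deposited table and AC024909.2 in GENCODE 29, under a single gene ID, and is called AC024909.1 here. Of the 31-base words of DUSP6 transcripts, 38.5% also occur in other genes, mainly in AC024909.1, and the sources used here do not say whether reads were counted by strand, so the split between the genes is uncertain. AC024909.1 was at 0.171 to 0.333 CPM, far below DUSP6 in every library. With the counts of both genes added together the log2 fold change was -0.93 (edgeR adjusted p = 0.0158) over the 4 libraries and -0.68 (adjusted p = 0.125) over the 6. This sum was computed after the values had been seen.

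DUSP5 was at 28.5, 47.3 and 47.2 CPM in NC_1, NC_2 and NC_3, and at 35.4, 71.1 and 30.1 CPM in SiCIRBP_1, SiCIRBP_2 and SiCIRBP_3. The libraries left out by the study held both the lowest and the highest value, NC_1 and SiCIRBP_2 respectively, so the groups overlapped. DUSP5 fell over the 4 libraries by 0.53 on the log2 scale (SE 0.114, 95% confidence interval -0.80 to -0.26, edgeR adjusted p = 0.0253). With all 6 libraries the sign turned, to a log2 fold change of 0.15 (edgeR adjusted p = 0.803). The 4-library call was also lost without NC_2 (-0.53, adjusted p = 0.201) and without NC_3 (-0.54, adjusted p = 0.24).

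SPRY2 is a Sprouty protein that blocks receptor signalling toward RAS. Its gene lies at chr13:80335976-80340951 on the minus strand, and no 31-base word of its transcripts occurs in another gene. ETS factors bind DNA around a GGAA core, so the 100 bases before the outermost RefSeq start site of SPRY2, the gene that fell furthest, are shown beside those of SPRY1, the relative with the highest fold change (RefSeq, GRCh38.p14, each written 5′ to 3′ on the strand of its gene, with GGAA cores of either strand in capitals, TTCC being the reverse complement):
SPRY2, chr13:80341127-80341226, minus strand: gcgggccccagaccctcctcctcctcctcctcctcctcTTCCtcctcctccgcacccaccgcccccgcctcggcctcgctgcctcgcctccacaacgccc
SPRY1, chr4:123396695-123396794, plus strand: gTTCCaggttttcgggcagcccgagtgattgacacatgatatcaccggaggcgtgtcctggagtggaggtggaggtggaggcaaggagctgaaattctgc
Within 250 bases before these starts the core occurred 3 times for SPRY2 and 5 times for SPRY1. The letters are common, since 92.7% of 35116 promoter windows of the same length held at least 1 core, with a median of 3. The longer form CCGGAAG, which contains the core, was found in 8.52% of windows and in 1 of the 10 windows of the 6 regulators with an entry, a second start of SPRY1. These matches are descriptions of the windows.

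SPRY2 was measured at 50.8 CPM in NC_1, 89.2 CPM in NC_2 and 91.2 CPM in NC_3, and at 44.3, 60.1 and 32.9 CPM in SiCIRBP_1, SiCIRBP_2 and SiCIRBP_3. NC_1 lay well below the other NC libraries, between SiCIRBP_1 and SiCIRBP_2, and the groups overlapped through these values. Over the 4 libraries SPRY2 fell by 1.22 on the log2 scale (SE 0.145, 95% confidence interval -1.57 to -0.88, edgeR adjusted p = 0.00648), the sole regulator of the 10 past a 2-fold change. Across all 6 libraries the log2 fold change was -0.75 (SE 0.279, edgeR adjusted p = 0.166, DESeq2 adjusted p = 0.0663). The 4-library call was lost without NC_3 (-1.21, adjusted p = 0.0619) and held without NC_2 (-1.24, adjusted p = 0.0416).

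SPRY1 was at 4.31, 2.91 and 3.38 CPM in the NC libraries and at 4.21, 4.01 and 4.31 CPM in the SiCIRBP libraries, replicates 1 to 3. The SiCIRBP values lay close together, and NC_1 was as high as the highest of them. The log2 fold change over the 4 libraries was 0.44 (SE 0.214, 95% confidence interval -0.08 to 0.95, edgeR adjusted p = 0.191). SPRY4 was at 17.0, 23.0 and 20.9 CPM in NC and at 17.0, 26.9 and 18.7 CPM in SiCIRBP. Its SiCIRBP_2 value exceeded all others, and NC_1 lay level with SiCIRBP_1. The log2 fold change of SPRY4 was -0.30 (SE 0.123, edgeR adjusted p = 0.132) over the 4 libraries and 0.04 (adjusted p = 0.923) over the 6. SPRY4 overlaps the antisense gene SPRY4-AS1 in position. It shares only 0.317% of its 31-base words with other genes, SPRY4-AS1 not being a main one, against 38.5% for DUSP6.

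SPRED1 and SPRED2 are membrane-bound relatives of Sprouty, and SPRED1 is known to bring the RAS inhibitor NF1 to the membrane. SPRED1 was measured at 25.5, 29.1 and 28.0 CPM in NC_1, NC_2 and NC_3 and at 18.7, 26.9 and 17.9 CPM in SiCIRBP_1, SiCIRBP_2 and SiCIRBP_3. SiCIRBP_1 and SiCIRBP_3 lay below every NC library, whereas SiCIRBP_2 lay inside the NC range. SPRED1 fell over the 4 libraries by 0.64 on the log2 scale (SE 0.110, 95% confidence interval -0.91 to -0.38, edgeR adjusted p = 0.0146), and over the 6 the log2 fold change was -0.38 (SE 0.182, adjusted p = 0.245). Without SiCIRBP_2 alone, that is over 5 libraries, it was -0.59 (edgeR adjusted p = 0.0324), and without any other library of the 6 it was between -0.44 and -0.27 and was not called (adjusted p = 0.282 to 0.545). The 4-library call was lost without NC_2 (-0.62, adjusted p = 0.161) and without NC_3 (-0.68, adjusted p = 0.175).

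SPRED2 was not called. It was at 47.1, 47.4 and 43.4 CPM in NC and at 53.0, 41.2 and 50.0 CPM in SiCIRBP, with SiCIRBP_2 the lowest library and SiCIRBP_1 the highest. The log2 fold change was 0.18 (SE 0.098, 95% confidence interval -0.05 to 0.42, edgeR adjusted p = 0.227) over the 4 libraries and 0.06 (adjusted p = 0.784) over the 6. The 4-library intervals of SPRED1 and SPRED2 did not overlap, although the difference between the genes was not itself tested.

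ETV4 and ETV5, the transcription factors among the regulators, were not called in either fit. ETV5 was at 47.3, 57.5 and 57.4 CPM in NC and at 49.5, 73.2 and 43.6 CPM in SiCIRBP, and ETV4 at 9.43, 9.05 and 10.1 CPM in NC and at 7.33, 12.1 and 8.37 CPM in SiCIRBP. In both genes SiCIRBP_2 was the highest library. SiCIRBP_1 and SiCIRBP_3 lay below all NC libraries for ETV4, whereas for ETV5 the SiCIRBP_1 value exceeded that of NC_1. The log2 fold change over the 4 libraries was -0.30 for ETV5 (95% confidence interval -0.54 to -0.06, edgeR adjusted p = 0.0777) and -0.29 for ETV4 (95% confidence interval -0.67 to 0.10, adjusted p = 0.245). Over the 6 libraries the values were 0.04 for ETV5 (adjusted p = 0.927) and -0.04 for ETV4 (adjusted p = 0.924). ETV5 shares 2.78% of its 31-base words with other genes, chiefly DGKG, which overlaps it on the same strand. ETV4 shares 1.63%. On the opposite strand ETV5 overlaps the antisense gene ETV5-AS1 and ETV4 overlaps DHX8 in position, but neither of these is a main sharer of words.

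**Figure D2:**
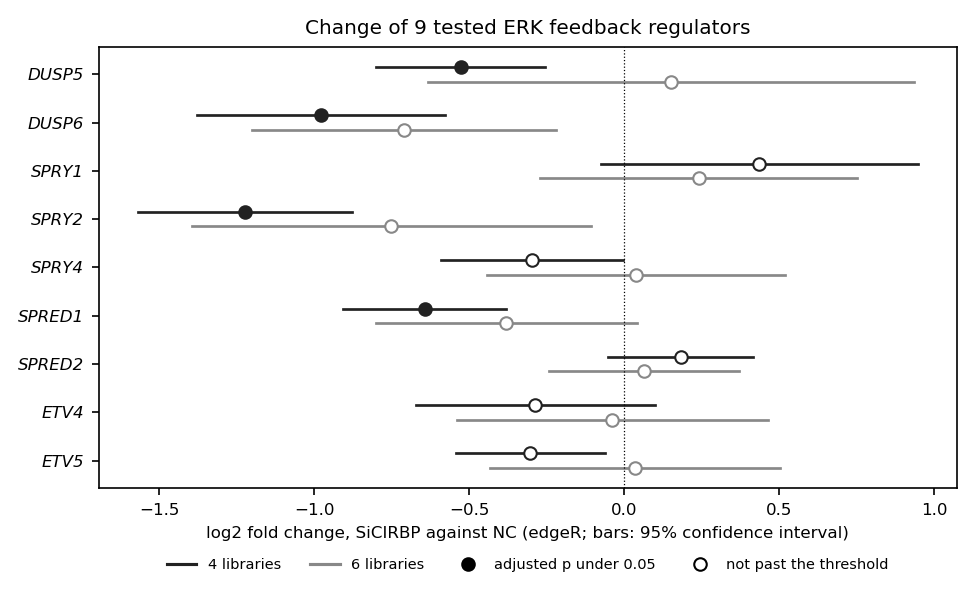
Log2 fold change of SiCIRBP against NC for the 9 tested genes (edgeR, bars are 95% confidence intervals), over the 4 libraries kept by the study (black) and over all 6 (grey), with filled points for an adjusted p under 0.05. SPRY2, DUSP6, SPRED1 and DUSP5 are filled over the 4 libraries, and over the 6 no point is filled and DUSP5, SPRY4 and ETV5 sit on the other side of 0.

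By count over the 4 libraries, 4 of the 9 tested genes were lower and 0 were higher, where 9.76% of all 15421 tested genes were lower and 9.62% were higher. The median log2 fold change of the 9 genes was -0.30 beside a median of -0.002 over all genes. Since the RNA came from whole cultures, fewer cells of a kind and less RNA per cell cannot be told apart. Over the 6 libraries the median of the 9 genes was 0.04, and edgeR called none of them. It also called 0% of all 15217 tested genes, with a smallest adjusted p of 0.0853, although 3603 genes had an unadjusted p under 0.05. DESeq2 called 1 of the 9 genes, DUSP6, where it called 5.04% of 14186 genes lower. Without overlap between the groups, 1 of the 9 genes was lower in every SiCIRBP library, where 16.6% of genes were, and none was higher in every SiCIRBP library, where 16.2% of genes were. Out of 9 genes, a count of 0 or 1 is near each of these backgrounds. The fits over 4 and over 6 libraries share 4 libraries and are not separate evidence.

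The libraries left out by the study moved several of these genes. NC_1 lay beyond NC_2 and NC_3 on the side of SiCIRBP_1 and SiCIRBP_3 for 7 of the 9 genes, where this held for 65.2% of all tested genes. It did so for all 4 called regulators, as for 92.6% of the genes lower over the 4 libraries that were also tested over the 6. SiCIRBP_2 was the highest of the 6 libraries for 4 of the 9 genes, DUSP5, SPRY4, ETV4 and ETV5, where it was the highest for 31% of genes. It was the lowest for 1, SPRED2, where it was the lowest for 32.3% of genes. Relative to the mean of NC_2 and NC_3, on the scale of log2(CPM + 1), DUSP5 differed by -0.71 in NC_1 and by 0.58 in SiCIRBP_2, while DUSP6 differed by -0.36 in NC_1 and by -0.51 in SiCIRBP_2.

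**Figure D3:**
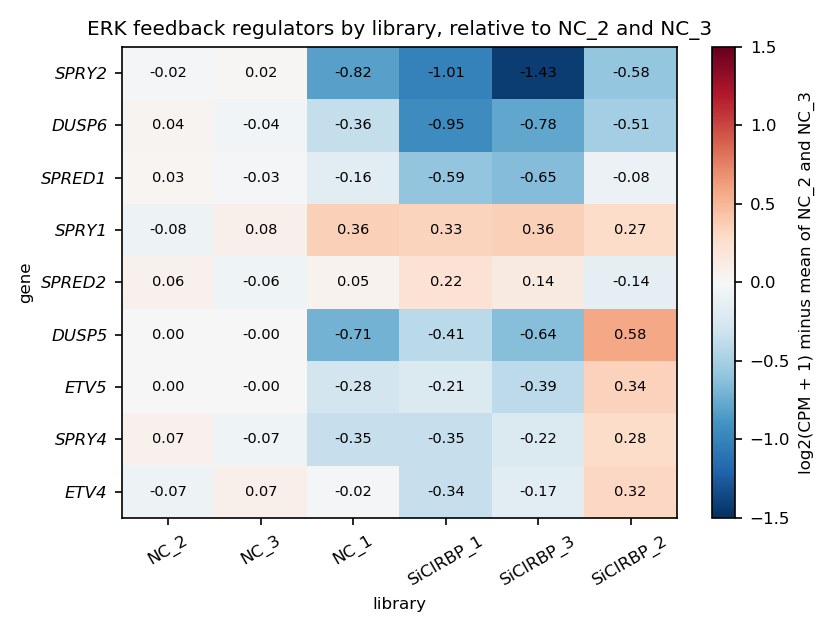
Difference of log2(CPM + 1) from the mean of NC_2 and NC_3 for each of the 9 tested genes (rows) in each library (columns), blue for lower and red for higher, with the value printed in each cell. SPRY2, DUSP6 and SPRED1 are lower in NC_1 and in all 3 SiCIRBP libraries, SPRED1 only slightly in SiCIRBP_2 (-0.083). DUSP5, ETV5, SPRY4 and ETV4 are higher in SiCIRBP_2 and lower in SiCIRBP_1 and SiCIRBP_3.

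Described over the 6 libraries, some of the genes varied together. Pearson r of log2(CPM + 1) was 0.98 between DUSP5 and ETV5 and 0.93 between DUSP5 and SPRY4. It was 0.89 between DUSP6 and SPRY2, 0.90 between DUSP6 and SPRED1 and 0.90 between SPRY2 and SPRED1. ETV4 and SPRED2 ran in opposite directions with r = -0.98. The genes did not part into sharp sets, since SPRED1 also had r = 0.71 with ETV4 and 0.68 with ETV5. These are 6 points that share library and depth. SiCIRBP_2 is the highest point for DUSP5, ETV5, SPRY4 and ETV4 and the lowest for SPRED2. Of 9431 other genes with a mean of at least 10 CPM, PFKM, RANBP9 and the ubiquitin ligase SIAH1 were the closest to DUSP6, with r of 0.997, 0.991 and 0.990 over the 6 libraries. PFKM, the muscle phosphofructokinase of glycolysis, was at 100, 115 and 114 CPM in NC and at 80.2, 96.7 and 86.0 CPM in SiCIRBP. With only 6 points, 303 genes reached an r of 0.9 with DUSP6.

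Counts and TPM gave partly different calls. On log2(TPM + 1) over the 4 libraries, limma called 2 of the 9 genes lower, where 6.83% of 13603 genes were lower. SPRY2 fell by 1.29 (adjusted p = 0.0228) and DUSP5 by 0.61 (adjusted p = 0.0405) on this scale. DUSP6 at -0.71 (limma adjusted p = 0.0529) and SPRED1 at -0.60 (adjusted p = 0.0585) missed the threshold. Adding 1 before the logarithm shrinks the change of genes at such low levels. The 4-library means in NC and SiCIRBP were 4.665 and 2.455 TPM for DUSP6, and 5.835 and 3.505 TPM for SPRED1. The missed calls therefore do not reflect the unit alone. The number of counts per TPM unit, relative to the median gene of the library, shows how long a transcript each gene was assigned. It was stable for SPRY2, between 1.01 and 1.02 in all 6 libraries, and for DUSP5, between 1.08 and 1.10. For DUSP6 it ran from 1.24 to 1.64, for ETV5 from 1.27 in SiCIRBP_2 and SiCIRBP_3 to 1.60 in NC_1, and for SPRED1 it was 2.39 in SiCIRBP_2 and 3.10 to 3.26 elsewhere. The TPM of DUSP6 was 3.90, 4.39 and 4.94 in the NC libraries and 2.36, 2.28 and 2.55 in the SiCIRBP libraries, so the groups were separate in this unit as well.

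The other genes of the families and of the pathway were followed on fixed lists. Among 10 relatives, 1 was lower and 1 was higher over the 4 libraries, shares near the 9.76% and 9.62% of all genes, with a median log2 fold change of 0.19. DUSP1, a stress-induced phosphatase that prefers p38 and JNK, fell by 0.70 (edgeR adjusted p = 0.0156) and was at 120, 176 and 146 CPM in NC and at 107, 87.6 and 91.1 CPM in SiCIRBP, without overlap. DUSP7, a cytoplasmic ERK phosphatase, rose by 0.35 (adjusted p = 0.032), yet its SiCIRBP_2 value of 54.7 CPM was the lowest of the 6, and over the 6 libraries its log2 fold change was 0.16 (adjusted p = 0.588). DUSP16 and DUSP8, phosphatases of JNK and p38, were picked here after their values were seen. DUSP16 stood out in SiCIRBP_2 with 29.7 CPM, against 4.42 to 5.59 CPM in the other 5 libraries. DUSP8 was at 3.3, 4.1 and 4.3 CPM in NC and at 5.5, 15.3 and 4.8 CPM in SiCIRBP, without overlap. Of the 10 relatives, 1 (DUSP1) was lower in every SiCIRBP library and 3 (DUSP2, DUSP8 and DUSP10) were higher, beside 16.6% and 16.2% of all genes. DUSP2, also picked after its values were seen, was low, at 0.911, 1.165 and 0.918 CPM in NC and at 1.781, 4.356 and 1.354 CPM in SiCIRBP. It was not called over the 4 libraries (edgeR adjusted p = 0.248) or over the 6 (adjusted p = 0.153).

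Of 15 other negative regulators of the pathway, 4 were lower and 1 was higher, beside 9.76% and 9.62% of all genes, with a median of -0.26. CBL, the ubiquitin ligase that removes activated receptors, fell by 0.75 (edgeR adjusted p = 0.0104). RASAL2, DAB2IP and NF1, which all speed the return of RAS to its inactive form, fell by 0.59, 0.50 and 0.37 (adjusted p = 0.0149, 0.0159 and 0.0293). NF1 was at 83.8, 90.8 and 85.9 CPM in NC and at 69.1, 65.4 and 67.5 CPM in SiCIRBP. The groups did not overlap for NF1, and 5 genes of the list were lower in every SiCIRBP library while 2 were higher, beside 16.6% and 16.2% of all genes.

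In the core of the pathway, from GRB2 to MAPK3, 4 of 21 genes were lower and 1 was higher, beside 9.76% and 9.62% of all genes, with a median of 0.09. The docking protein GAB1 fell by 0.95 (edgeR adjusted p = 0.014), the scaffold KSR1 by 0.59 (adjusted p = 0.0247) and the kinase BRAF by 0.45 (adjusted p = 0.035), while the small GTPase RRAS rose by 0.62 (adjusted p = 0.0186). GAB1 was at 7.5, 9.67 and 9.41 CPM in NC and at 4.96, 3.89 and 4.88 CPM in SiCIRBP. The groups were thus separate for GAB1, and SiCIRBP_2 was the lowest library. For BRAF the log2 fold change over the 6 libraries was -0.29 (adjusted p = 0.292). Of the 21 core genes, 3 were lower in every SiCIRBP library and 6 were higher, beside 16.6% and 16.2% of all genes.

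Upstream of the core, 5 of 15 tested receptor tyrosine kinases were lower and 0 were higher, beside 9.76% and 9.62% of all genes, with a median of -0.38. FGFR1 fell by 0.58 (edgeR adjusted p = 0.0082), IGF1R by 0.54 (adjusted p = 0.00828), DDR2, a collagen receptor, by 0.63 (adjusted p = 0.0143) and EGFR by 0.45 (adjusted p = 0.0149). EGFR was at 302, 387 and 387 CPM in NC and at 272, 89.8 and 294 CPM in SiCIRBP, with the lowest value in SiCIRBP_2, and over the 6 libraries its log2 fold change was -0.71 (adjusted p = 0.288). As described over all 6 libraries, 7 of the 15 receptors were lower in every SiCIRBP library and 0 were higher, beside 16.6% and 16.2% of all genes. Of 18 ligands, 10 were tested, 2 of them lower and 2 higher, beside 9.76% and 9.62% of all genes, with a median of 0.06. On the log2 scale PDGFA rose by 0.79 over the 4 libraries (adjusted p = 0.0098) and IGF2 by 1.46 (adjusted p = 0.0173), while VEGFA fell by 0.76 (adjusted p = 0.0305) and PDGFB by 1.42 (adjusted p = 0.0439). SiCIRBP_2 went against these calls for PDGFA, where it was the lowest of the 6 libraries at 10.8 CPM against 20.8 to 24.2 CPM in NC, and for PDGFB, where its 1.98 CPM exceeded NC_1 and NC_2. Over the 6 libraries the log2 fold changes were 0.35 for PDGFA (edgeR adjusted p = 0.617) and -0.44 for PDGFB (adjusted p = 0.623). IGF2 and PDGFB were low, at no more than 4.56 and 2.13 CPM in any library.

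Other transcripts known to follow ERK activity gave 7 lower and 2 higher genes of 20 over the 4 libraries, beside 9.76% and 9.62% of all genes, with a median of -0.42. PHLDA1, the phosphate transporter SLC20A1, MAFF and MYC fell by 0.73, 0.68, 1.03 and 0.91 (edgeR adjusted p = 0.00594, 0.00594, 0.00605 and 0.00614). MYC, the growth-related transcription factor, was at 192, 292 and 296 CPM in NC and at 171, 140 and 142 CPM in SiCIRBP, without overlap. MAFF, a small basic leucine zipper factor, was at 25.9, 39.0 and 42.3 CPM in NC and at 21.1, 37.3 and 18.7 CPM in SiCIRBP, and its groups overlapped through NC_1 and SiCIRBP_2. Its log2 fold change over the 6 libraries was -0.48 (edgeR adjusted p = 0.341). CCND1 and HMGA2 were the genes that rose. Over the 6 libraries 9 of the 20 were lower in every SiCIRBP library and 3 were higher, beside 16.6% and 16.2% of all genes, and the median was -0.47 beside 0.008 over all genes. DESeq2 called 5 of them lower and 1 higher over the 6 libraries, beside 5.04% and 4.48% of all genes.

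**Figure D4:**
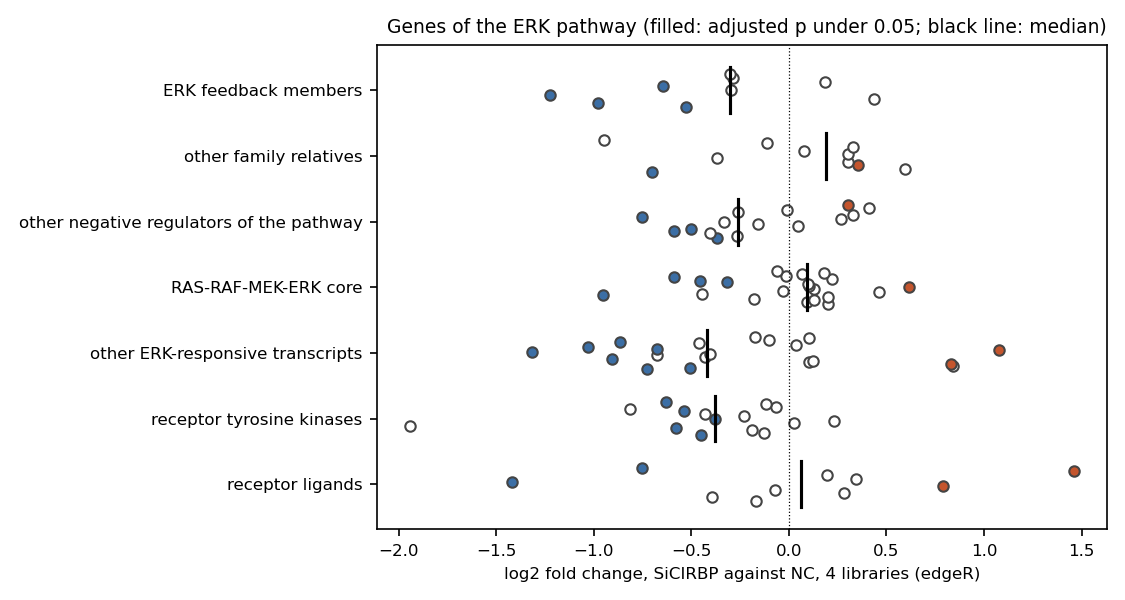
Log2 fold change of SiCIRBP against NC over the 4 libraries (edgeR) for every tested gene of the ERK feedback regulators and of 6 pathway lists, 1 point per gene, blue for lower and orange for higher at an adjusted p under 0.05, open otherwise, with a black line at the median. The feedback regulators, the other negative regulators, the receptors and the other ERK-responsive transcripts have medians of -0.30, -0.26, -0.38 and -0.42, and the relatives, the core and the ligands have medians above 0.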

How the data were processed

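RNA-seq libraries of siRNA-treated cells were analysed from the table that the authors deposited, which holds an estimated count and a TPM value per gene and library. Per the labels, fastp, HISAT and RSEM were used on hg38, with versions not given in the sources used here. The paper names AC16 cells for its RNA-seq and the labels name T0519. After rounding, the estimated counts entered edgeR 4.0.16 (R 4.3.3, TMM, filterByExpr, quasi-likelihood, Benjamini-Hochberg over all tested genes), with an adjusted p under 0.05 as the call. TPM values of at least 1 in at least 2 libraries were tested with limma 3.58.1 on log2(TPM + 1), and DESeq2 1.42.0 was an alternative. The authors' own fold changes and p-values were not used. Standard errors were derived from the fold change and its F statistic. Positions come from GENCODE 29, where 58611 of 58884 gene IDs were found, and promoters from RefSeq. The 10 genes and the lists were chosen with earlier results of these data known. Named list genes are the up to 4 called genes with the smallest p. For a list with none called, it is the 1 with the largest change among genes with a mean of at least 10 CPM. On simulated counts, edgeR recovered 100% of 200 genes changed by 1.5 on the log2 scale among 15146 genes in the 4-library design, with 8 false calls. The simulation gave all genes a common spread and set no library apart, and its change exceeded that of every regulator. It also gave 100% in the 6-library design, where edgeR called 0 genes in the data. Its figures therefore do not give the recovery or the false calls in these data. Depth was 25726259 to 29919566 counts per library. Counting errors cover sampling of reads only.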

Additional observations from a re-analysis of the deposited data

How the results depend on the processing

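Over the 4 libraries, counts of higher and lower genes (1484 and 1505) became 281 and 278 with a 2-fold minimum and 0 and 0 with all 6 libraries, and lower genes became 2492 without the filter on low counts. Leaving out each library gave 25 to 3379 higher and 39 to 3669 lower genes, fewest without NC_3. Among the 10 regulators, the 4 lower became 1 with the 2-fold minimum, 0 with all 6 libraries and 0 to 7 (higher, 0 to 1) on leaving out each library, the 0 without NC_3 and the 7 without SiCIRBP_3, when SPRY4, ETV4 and ETV5 joined and SPRED2 was called higher. Over the 6 libraries, edgeR's 0 higher and 0 lower genes became 636 and 715 with DESeq2, 421 and 460 without the filter, 1 and 0 with the replicate block, 0 to 554 and 0 to 564 on leaving out each library (most without SiCIRBP_2). The 0 lower regulators became 1 with DESeq2 and 0 to 2 on leaving out each library. On log2(TPM + 1) the 2 lower regulators became 0 without the filter, and 0 to 2 on leaving out each library. DUSP5, SPRY4 and ETV5 reversed with all 6 libraries (0.151, 0.038 and 0.0354) and with the replicate block (0.0876, 0.021 and 0.00606), SPRED2 on log2(TPM + 1) (-0.0176), and IFIT1, the interferon gene the naming rule picked, without SiCIRBP_3 (-0.261, from 1.46, with 2.22 without SiCIRBP_1). The cause was not tested. Same-numbered libraries did not deviate together (correlations -0.118, 0.006 and -0.026), so the replicate numbers were not taken as pairs. Of 101 alternative values for single regulators, 73 kept direction and side of the threshold, 16 fell below it, 5 passed it and 7 reversed. With a library left out, the lone sample of an arm is assumed to vary like the others. DUSP4, at 0 to 2 counts, is limited by depth.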

Other observations

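The marker lists of other cell types and the interferon list held values outside the ERK comparison. Of 20 interferon-stimulated genes, edgeR called 0 over the 4 libraries, with a median log2 fold change of 0.25, and the median over all 6 libraries was 2.46. IFIT1, an interferon-induced RNA-binding protein, was at 21.1, 14.9 and 12.1 CPM in NC and at 11.3, 535 and 62.8 CPM in SiCIRBP_1, SiCIRBP_2 and SiCIRBP_3, so that the SiCIRBP libraries differed among themselves far more than the NC libraries did. Of 4 tested cardiomyocyte markers, 2 were lower over the 4 libraries and 0 were higher, beside 9.76% and 9.62% of all genes. The lower ones were the cardiac transcription factors NKX2-5 and GATA4 (log2 fold change -1.24 and -0.41, edgeR adjusted p = 0.016 and 0.0211). ACTN2 (-0.42, adjusted p = 0.0981) and TNNI3 (2.44, adjusted p = 0.0719) were not called. TNNI3 thus ran the opposite way, with 2.10 over the 6 libraries (adjusted p = 0.131). Its low values were 0.175, 0.272 and 0.0328 CPM in NC and 0.548, 0.428 and 1.07 CPM in SiCIRBP, without overlap. GATA4 was at 87.3, 111 and 108 CPM in NC and at 79.7, 47.4 and 84.6 CPM in SiCIRBP. NKX2-5 was highest in SiCIRBP_2, with 9.49 CPM, against 3.08 and 3.03 CPM in SiCIRBP_1 and SiCIRBP_3, and its log2 fold change over the 6 libraries was -0.36 (adjusted p = 0.639).

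Of 6 tested fibroblast markers, COL1A1 rose by 0.87 over the 4 libraries (edgeR adjusted p = 0.0332, with 0.41 and adjusted p = 0.491 over the 6) and PDGFRA, which is also on the receptor list, fell by 0.38 (adjusted p = 0.0297). The 8 listed fibroblast markers summed to 937 to 1102 TPM in NC and to 1053, 558 and 1651 TPM in SiCIRBP_1, SiCIRBP_2 and SiCIRBP_3. Of 3 tested endothelial markers, VWF was called higher at no more than 0.548 CPM in any library.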
